A study of Mus musculus with 18 samples.

Results

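The surfactant and alveolar type 2 genes were followed in lung RNA of 18 male mice as a set of 10: Sftpa1, Sftpb, Sftpc, Sftpd, Abca3, Lamp3, Napsa, Slc34a2, Etv5 and Nkx2-1. Every probe whose RefSeq accession named one of these genes was taken, which gave 12 probes of 55681 on the array and 10 of 20660 named genes. Sftpb and Sftpd had 2 probes each, the Nkx2-1 probe was printed as 10 spots, and the other genes had 1 probe in 1 spot. The mice were Muta™Mouse, a transgenic line that carries a bacterial lacZ reporter for mutation assays, about 12 weeks old and housed singly, and all received olive oil by daily gavage for 28 days. In 5 vehicle mice the oil held nothing else. In the others it held the 4PAH-Mix, made of benzo[a]pyrene (BaP), benz[a]anthracene, benzo[b]fluoranthene and chrysene, at 12.5 (low, 4 mice), 25 (medium, 5 mice) or 50 (high, 4 mice) mg BaP equivalents/kg-bw/day. Lungs were taken 72 hours after the last dose, so each value is a level 3 days after dosing ended. Each mouse had 1 array, with its lung RNA in the Cy5 channel and a reference RNA pooled from 11 mouse cell lines in the Cy3 channel, and the question was whether these genes of the alveolar lining moved with dose.

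Alveolar type 2 (AT2) cells make and store pulmonary surfactant, the film of lipid and protein that keeps alveoli open at the end of a breath, and they renew the alveolar epithelium after injury. Surfactant proteins B and C are small hydrophobic proteins that help spread the lipid, whereas surfactant proteins A and D are collectins that bind microbes. The lipid is carried into lamellar bodies, the storage organelles of the cell, by the transporter ABCA3. The transcription factor NKX2-1 switches on most of these genes, and ETV5, which acts downstream of FGF and ERK signalling, is needed to keep the AT2 state.

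The promoters of Sftpa1 and Sftpb are shown as examples of sequence holding the letters CTCAAG, the core of many NKX2-1 sites. They are the 250 bases before the RefSeq start in GRCm38.p6, 5′ to 3′ on the plus strand, at chr14:41131538-41131787 for Sftpa1 and chr6:72304360-72304609 for Sftpb. Capitals mark CTCAAG.
Sftpa1: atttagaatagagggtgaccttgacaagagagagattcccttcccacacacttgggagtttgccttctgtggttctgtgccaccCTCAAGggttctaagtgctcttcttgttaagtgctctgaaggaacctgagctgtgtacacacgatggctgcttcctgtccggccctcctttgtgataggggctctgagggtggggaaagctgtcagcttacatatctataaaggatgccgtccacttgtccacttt
Sftpb: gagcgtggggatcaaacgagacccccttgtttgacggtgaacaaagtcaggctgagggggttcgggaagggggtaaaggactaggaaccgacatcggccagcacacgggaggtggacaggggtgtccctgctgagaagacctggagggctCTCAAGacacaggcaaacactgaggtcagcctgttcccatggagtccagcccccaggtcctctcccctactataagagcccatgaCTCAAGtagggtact
Windows of 300 bases (250 before and 50 after the start) were at hand for 7 of the 10 genes, and CTCAAG on either strand lay in the windows of 2 of these 7. In Sftpa1 it began 166 bases before the start, and in Sftpb 100 and 15 bases before it. The same letters lay in 15.9% of all 32851 promoter windows, so a match is common. The FOXA motif TGTTTAC was found in Lamp3 and Etv5 and in 3.65% of all windows, and the ETS motif CAGGAAG in Nkx2-1, Sftpa1 and Lamp3 and in 13.3%. Exact letters were searched on both strands, and a match is a description of the sequence only.

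All 12 probes were well above background in both channels on all 18 arrays, and no spot on any array was marked as saturated in either channel. Sftpc was among the 4 brightest probes on every array. Its Cy5 median signal ran from 470194 to 621198, which was 60.3% to 79.7% of the highest value the scanner could write. The Sftpd probe reached at most 24.6% of that ceiling, Sftpa1 20.0% and Sftpb 16.1%, and the other genes stayed under 6%.

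In vehicle lung every one of the 10 genes was higher than in the reference RNA, as a fold of Cy5 over Cy3 averaged over 5 mice. Sftpd stood 228-fold above the reference, Sftpc 157-fold, Sftpa1 104-fold and Sftpb 94.2-fold. Slc34a2, the sodium-phosphate cotransporter NaPi-IIb that takes phosphate back from the alveolar fluid, was 27.2-fold higher. Nkx2-1 was 14.9-fold higher, Napsa 13.5-fold, Abca3 10.8-fold, Lamp3 6.12-fold and Etv5 3.71-fold. The second probes gave 105-fold for Sftpd and 14.9-fold for Sftpb, so the size of these folds depended on the probe. The dyes were not swapped, so a dye effect is part of each of these folds. Background was not subtracted, and it is part of the Cy3 signal of the dimmest probes. Over the 18 arrays Cy3 was 90 to 133 for Nkx2-1 and 78 to 112 for Slc34a2, beside array medians of 75 to 89.

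None of the 10 genes passed a Benjamini-Hochberg adjusted p of 0.05 in limma together with a change of 1.5-fold at any dose. Of all 55681 probes, 0.0898% passed in the low dose comparison, 0.726% in the medium and 1.2% in the high dose one, and 0 of 12 member probes stood beside these shares. By unadjusted p under 0.05 in limma, from low to high dose 1, 6 and 4 genes of 10 passed, against 8.01%, 15.3% and 15.7% of all probes. By adjusted p alone, with no limit on the fold, Abca3 fell at the medium dose and Abca3 and Slc34a2 fell at the high dose, while 1.89% and 2.38% of all probes were lower by that rule. Between the high and the low dose, where 0.0449% of all probes were called, 0 of the 10 genes were. The 3 comparisons share the 5 vehicle mice. In RNA from whole lung, fewer AT2 cells and less RNA per cell cannot be told apart.

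The 4 genes of the surfactant proteins had no limma adjusted p of 0.05 or less at any dose. For Sftpc the log2 ratio to the reference was 7.52, 7.58, 6.84, 7.24 and 7.29 in the vehicle mice and 7.50, 7.46, 7.18 and 7.06 at the low dose. At the medium dose it was 7.02, 7.42, 7.04, 6.97 and 6.27, and at the high dose 7.05, 7.36, 6.71 and 7.36. The groups overlapped at every dose, and 1 vehicle mouse was lower than all but 2 of the exposed mice. The log2 fold change of Sftpc was 0.00 at the low dose, -0.35 at the medium (95% interval -0.72 to 0.01) and -0.17 at the high dose (-0.56 to 0.21), with limma adjusted p of 1.00, 0.353 and 0.745.

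Sftpa1, the collectin gene, had log2 ratios of 6.87, 6.84, 6.52, 6.55 and 6.75 in vehicle mice, 6.46, 6.72, 6.42, 6.20 and 5.92 at the medium dose and 6.37, 6.61, 6.11 and 6.75 at the high dose. In all, 4 of 5 medium mice were below every vehicle mouse, and at the high dose the groups overlapped. The log2 fold change was -0.36 ± 0.13 (SE) at the medium dose (limma adjusted p = 0.146), beside -0.25 ± 0.14 at the high dose (adjusted p = 0.423), after -0.07 at the low dose.

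Sftpd gave the clearest separation among the 4 surfactant protein genes. Its log2 ratio was 7.96, 7.89, 7.77, 7.77 and 7.78 in vehicle mice, 7.76, 7.86, 7.56 and 7.72 at the low dose, 7.60, 7.71, 7.58, 7.45 and 7.59 at the medium dose and 7.53, 7.61, 7.46 and 7.81 at the high dose. At the medium dose all 5 mice were below all 5 vehicle mice, a separation in this direction also seen for 2.05% of all probes, and at the high dose 3 of 4 were. The log2 fold change was -0.25 ± 0.08 (SE) at the medium dose (limma adjusted p = 0.0945), beside -0.23 ± 0.08 at the high dose (adjusted p = 0.145). With slide as a block the limma adjusted p at the medium dose was 0.0462, the only way of processing that gave 0.05 or less. The medium dose log2 fold change was -0.05 with median centring and 0.04 with scale normalization. The second Sftpd probe gave -0.04 (medium) and -0.15 (high), so the probes of this gene did not give 1 size of change.

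Sftpb had log2 ratios of 6.69, 6.69, 6.34, 6.45 and 6.61 in vehicle mice, 6.79, 6.79, 6.44 and 6.52 at the low dose, 6.36, 6.56, 6.35, 6.26 and 5.93 at the medium dose and 6.38, 6.52, 6.16 and 6.71 at the high dose. At the extremes, 2 low dose mice were above all vehicle mice and 2 medium mice were below them, with overlap in each comparison. The log2 fold changes were 0.07, -0.26 and -0.12, with limma adjusted p of 0.936, 0.271 and 0.746. The second probe gave -0.04, -0.20 and -0.18.

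**Figure D1:**
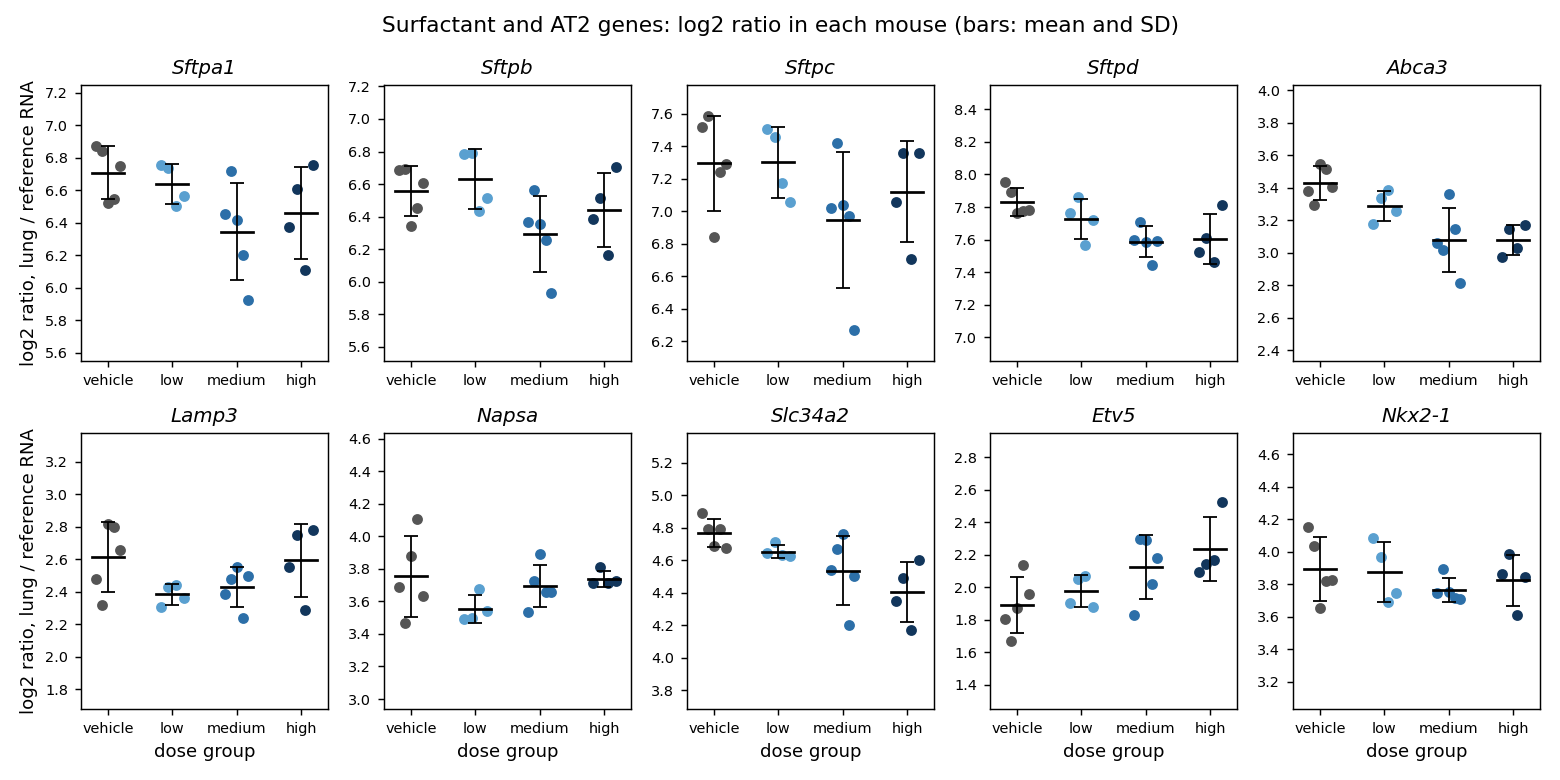
Log2 ratio of lung to reference RNA (vertical axis, the same span of log2 units in each panel) for each of the 10 genes, with 1 point per mouse in the vehicle, low, medium and high dose groups (horizontal axis) and the group mean and SD as bars. The 4 high dose mice lie below all 5 vehicle mice for Abca3 and Slc34a2, the 5 medium mice do so for Sftpd, and medium and high dose mice overlap the vehicle mice for Sftpa1, Sftpb, Sftpc, Lamp3, Napsa, Etv5 and Nkx2-1.

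Abca3, the lamellar body lipid transporter, was the gene with the lowest adjusted p at the medium and high dose. Its log2 ratio was 3.38, 3.30, 3.55, 3.52 and 3.40 in vehicle mice and 3.18, 3.33, 3.38 and 3.26 at the low dose. At the medium dose it was 3.06, 3.02, 3.36, 3.15 and 2.82, and at the high dose 2.97, 3.15, 3.03 and 3.17. All 4 high dose mice and 4 of 5 medium mice were below every vehicle mouse, and all 4 high dose mice were also below every low dose mouse. Of all probes, 4.33% were lower in this way in the high dose against the vehicle mice and 1.88% against the low dose mice. The level fell to 0.785-fold of vehicle at the medium dose (log2 fold change -0.35 ± 0.09 SE, limma adjusted p = 0.0264) and to 0.786-fold at the high dose (-0.35 ± 0.09, adjusted p = 0.0336), with -0.14 at the low dose (adjusted p = 0.761). Exact two-sided permutation tests of this gene alone gave p = 0.0159 at the medium and p = 0.00794 at the high dose, the latter the smallest that 5 against 4 mice allow. Within slides 1, 2 and 3 the log2 fold change was -0.30, -0.28 and -0.59 at the medium dose and -0.28, -0.50 and -0.23 at the high dose. Slide 3 holds 1 mouse of each group and slide 2 holds 1 high dose mouse, so the medium dose value of slide 3 and the high dose values of slides 2 and 3 rest on 1 exposed mouse each.

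At the medium dose the limma adjusted p of Abca3 was 0.0607 to 0.0750 when vehicle mouse 3 or 4 or medium dose mouse 11, 12 or 15 was left out, and at most 0.05 without any other mouse, with log2 fold changes of -0.42 to -0.28. At the high dose it was at most 0.05 only without vehicle mouse 2 or high dose mouse 20 (0.0334 and 0.0418) and between 0.0520 and 0.125 without any other mouse, with log2 fold changes of -0.38 to -0.31. The log2 fold change of Abca3 stayed below 0 in 12 of 12 ways of processing at both doses. It ran from -0.35 to -0.14 at the medium and from -0.37 to -0.09 at the high dose. It cannot move with Aquantile normalization, outlier spots kept, the filter on dim probes, only the groups compared or no fold limit. The limma adjusted p was 0.05 or less in 8 of 12 at each dose. It was above 0.05 at both doses with median centring, scale normalization and the Cy5 channel alone. The same held at the medium dose with only the groups compared and at the high dose with the authors' table.

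Slc34a2, the phosphate transporter of the apical membrane, had log2 ratios of 4.89, 4.79, 4.69, 4.79 and 4.68 in vehicle mice, 4.64, 4.71, 4.63 and 4.62 at the low dose, 4.54, 4.67, 4.76, 4.20 and 4.51 at the medium dose and 4.35, 4.49, 4.17 and 4.60 at the high dose. At these doses 3 of 4 low dose, 4 of 5 medium and 4 of 4 high dose mice were below every vehicle mouse, and the means went down from each dose to the next. The log2 fold change was -0.12 ± 0.10 (SE), -0.23 ± 0.09 and -0.37 ± 0.10 from low to high dose, with limma adjusted p of 0.839, 0.215 and 0.0401. At the high dose the level had fallen to 0.776-fold of vehicle (95% interval 0.672 to 0.897), and the exact two-sided permutation p for this gene alone was 0.00794. Within slides 1, 2 and 3 the high dose log2 fold change was -0.42, -0.57 and -0.08, the last 2 from 1 high dose mouse each. All 4 high dose mice were also below every low dose mouse. Of all probes, 4.33% were lower without overlap in the high dose against the vehicle mice and 1.88% against the low dose mice.

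At the high dose the limma adjusted p of Slc34a2 was at most 0.05 only without vehicle mouse 5 or high dose mouse 20 (0.0478 and 0.0245) and lay between 0.0520 and 0.160 without any other mouse, with log2 fold changes of -0.43 to -0.29. The change was below 0 in 12 of 12 ways of processing, from -0.42 to -0.12, and the ways that cannot move Abca3 cannot move it. The limma adjusted p was 0.05 or less in 7 of the 12. It was higher with normexp background correction, the scanner's ratios, median centring, scale normalization and the Cy5 channel alone. The Slc34a2 probe is dim in the reference channel, with a Cy3 signal of 78 to 112.

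Lamp3, a membrane protein of lamellar bodies that mature dendritic cells also carry, and Napsa, the aspartic protease napsin A that trims surfactant protein precursors, had no adjusted p of 0.05 or less at any dose. Lamp3 had log2 ratios of 2.48, 2.32, 2.82, 2.80 and 2.66 in vehicle mice, 2.31, 2.43, 2.44 and 2.36 at the low dose and 2.55, 2.75, 2.29 and 2.78 at the high dose. Against vehicle the log2 fold change of Lamp3 was -0.23, -0.18 and -0.02 from low to high dose, and the 95% interval of the last was -0.25 to 0.21. Napsa had log2 fold changes of -0.20, -0.06 and -0.01, with an interval of -0.23 to 0.20 at the high dose. For both genes limma adjusted p lay between 0.433 and 0.974, and each dose group overlapped the vehicle mice. For Napsa all 4 high dose mice (3.71 to 3.81) were above every low dose mouse (3.49 to 3.68), as for 1.94% of all probes, with a log2 difference of 0.19 (limma adjusted p = 0.812).

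With loess ratios, Etv5 was the only one of the 10 genes with a higher mean than vehicle at the medium and high dose. Its log2 ratio was 1.81, 1.67, 1.87, 2.14 and 1.96 in vehicle mice, 1.90, 2.05, 2.07 and 1.88 at the low dose, 1.83, 2.29, 2.29, 2.02 and 2.18 at the medium dose and 2.10, 2.14, 2.17 and 2.53 at the high dose. Of the exposed mice, 3 of 4 high dose and 3 of 5 medium mice were above every vehicle mouse, and all 4 high dose mice were above every low dose mouse, as for 1.94% of all probes. The log2 fold change was 0.09 ± 0.11 (SE), 0.23 ± 0.10 and 0.34 ± 0.11, with limma adjusted p of 0.910, 0.274 and 0.0884, so it passed at no dose. The exact two-sided permutation p for this gene alone at the high dose was 0.0238. Within slides 1, 2 and 3 the high dose value was 0.38, 0.17 and 0.57, the last 2 from 1 high dose mouse each.

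The value for Etv5 at the high dose was above 0 in 12 of 12 ways of processing, from 0.32 to 0.56. The ways that cannot move the fold change of Abca3 cannot move this one. The limma adjusted p was 0.05 or less in 4 of the 12. These were the authors' table, scale normalization, the Cy5 channel alone and the filter on dim probes. Without vehicle mouse 4 the value was 0.41 with a limma adjusted p of 0.0454. High dose mouse 20 had the highest value of the 18, and without it the log2 fold change was 0.25 (adjusted p = 0.271).

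Nkx2-1, the master regulator of the lineage, had log2 ratios of 4.15, 4.04, 3.65, 3.82 and 3.83 in vehicle mice, 3.75, 3.89, 3.76, 3.71 and 3.71 at the medium dose and 3.87, 3.99, 3.61 and 3.85 at the high dose. The groups overlapped throughout. The log2 fold changes were -0.02, -0.13 and -0.07, with 95% intervals of -0.24 to 0.19, -0.34 to 0.07 and -0.29 to 0.14 and limma adjusted p of 0.980, 0.592 and 0.831. The 8 to 10 spots of this probe kept on 1 array had an SD of 0.08 to 0.17 on the log2 scale, beside an SD of 0.16 between mice of 1 group.

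**Figure D2:**
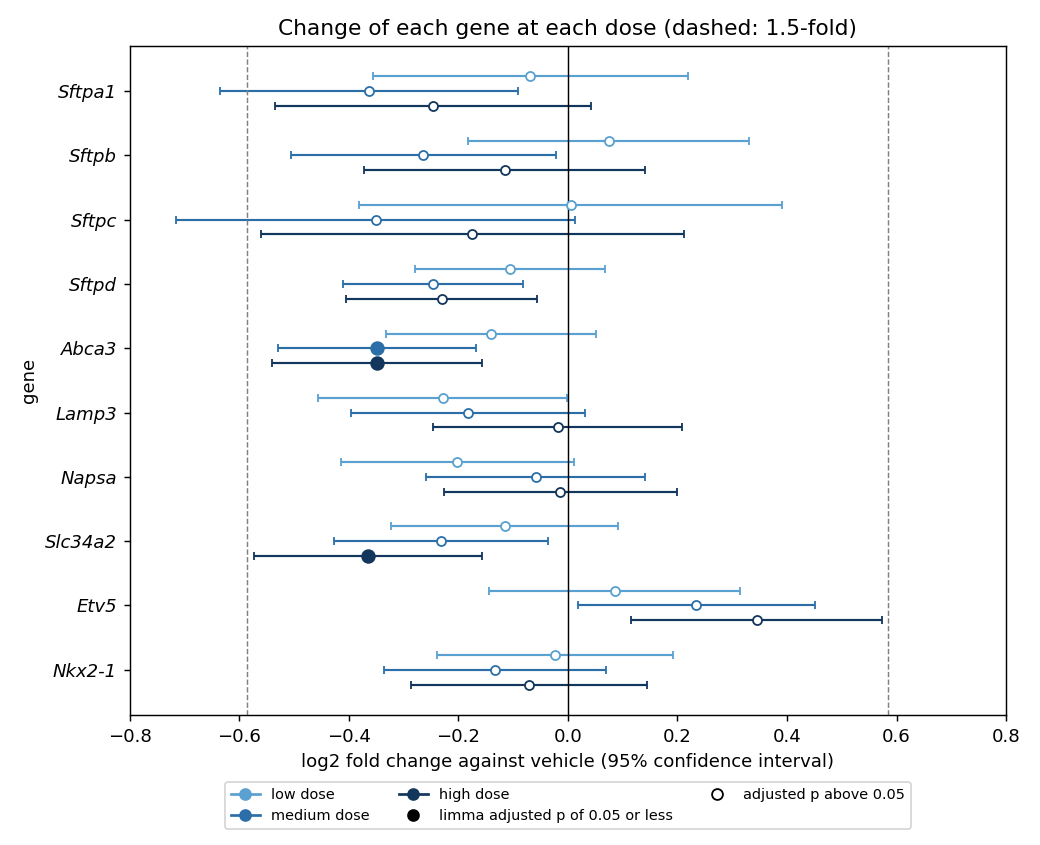
Log2 fold change against vehicle (horizontal axis) with its 95% confidence interval for each gene at the low, medium and high dose, from limma. Filled points have an adjusted p of 0.05 or less, which holds for Abca3 at the medium and high dose and for Slc34a2 at the high dose, and no point reaches the dashed lines at 1.5-fold.

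As a list, 7, 9 and 9 of the 10 genes had a lower mean than vehicle at the low, medium and high dose with loess ratios, but median centring left 3, 7 and 3 of 10 lower and scale normalization between arrays 7, 6 and 2. The median log2 fold change over the genes was -0.09, -0.24 and -0.14, beside 0.00 over all probes at each dose. It changed sign at the high dose under both of these scalings, to 0.07 with median centring and 0.17 with scale normalization. The median deviation of the 10 genes from the vehicle mean, taken mouse by mouse, was 0.01 ± 0.07 (SD, n = 5) in vehicle mice, -0.07 ± 0.08 (n = 4) at the low, -0.18 ± 0.12 (n = 5) at the medium and -0.14 ± 0.19 (n = 4) at the high dose. High dose mice 17 and 20 stood at 0.01, beside -0.21 and -0.38 for mice 16 and 18, so the high dose mice were divided.

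**Figure D3:**
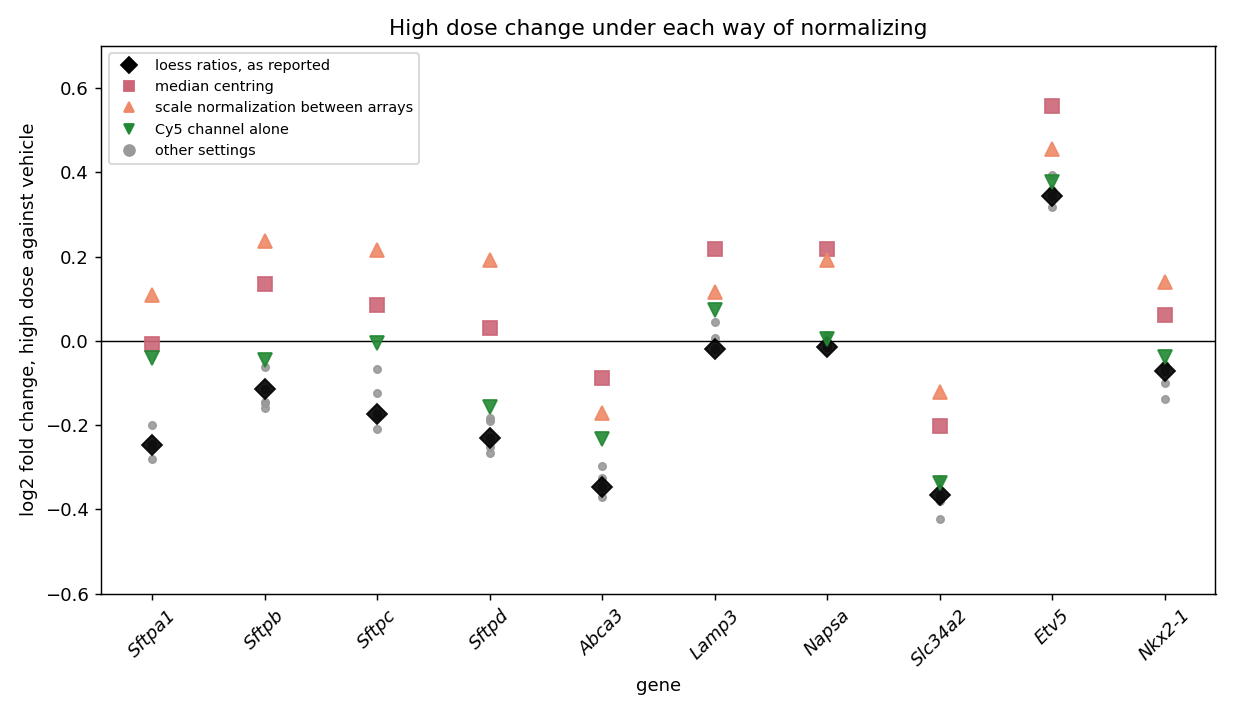
Log2 fold change at the high dose against vehicle (vertical axis) for each gene under each way of processing, with the reported loess ratios as diamonds. Abca3 and Slc34a2 lie below 0 and Etv5 above 0 under every setting shown, whereas the points of the other 7 genes lie on both sides of 0.

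The reference channel varied for the brightest genes, although the same reference RNA was on every array. The Cy3 signal of Sftpc ran from 3461 to 9187 across the 18 arrays, a 2.66-fold range, while its Cy5 signal spanned 1.32-fold. On the log2 scale and before normalization, the SD within groups for Sftpc was 0.40 in the Cy3 channel and 0.12 in the Cy5 channel. For the other 9 genes the order was turned, with 0.15 in Cy3 and 0.30 in Cy5 for Abca3 and 0.18 and 0.36 for Etv5. After quantile normalization of each channel it was larger in Cy3 for all 4 surfactant protein genes, with 0.36 against 0.22 for Sftpa1, 0.26 against 0.15 for Sftpb, 0.42 against 0.06 for Sftpc and 0.28 against 0.19 for Sftpd, and smaller in Cy3 for the other 6 genes. The lowest Sftpc ratio of the 18, 6.27 in medium dose mouse 15, came with a Cy3 signal of 7324, beside 3461 to 4287 for the other 3 arrays of its slide, and with the highest Cy5 signal of all.

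In the Cy3 channel by itself, an added readout chosen after the data were seen, 0 of the 10 genes passed unadjusted p under 0.05 in limma at any dose. The share of all probes under that rule was not computed for Cy3. At the medium dose the Cy3 difference was 0.24 for Sftpa1 (95% interval -0.19 to 0.66), -0.06 for Sftpb, 0.16 for Sftpc and 0.06 for Sftpd. The Cy5 difference there was -0.11, -0.26, 0.02 and -0.14 in the same order. In the Cy5 channel by itself the Sftpc difference was -0.05, 0.02 and -0.01 from low to high dose, where quantile normalization holds a probe of such rank close to 1 value. The Cy5 channel gave -0.24 and -0.23 for Abca3 at the medium and high dose (limma adjusted p 0.0768 and 0.118), -0.34 for Slc34a2 (0.116) and 0.38 for Etv5 (0.0283) at the high dose. The part of the reference channel in the ratios was not tested.

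**Figure D4:**
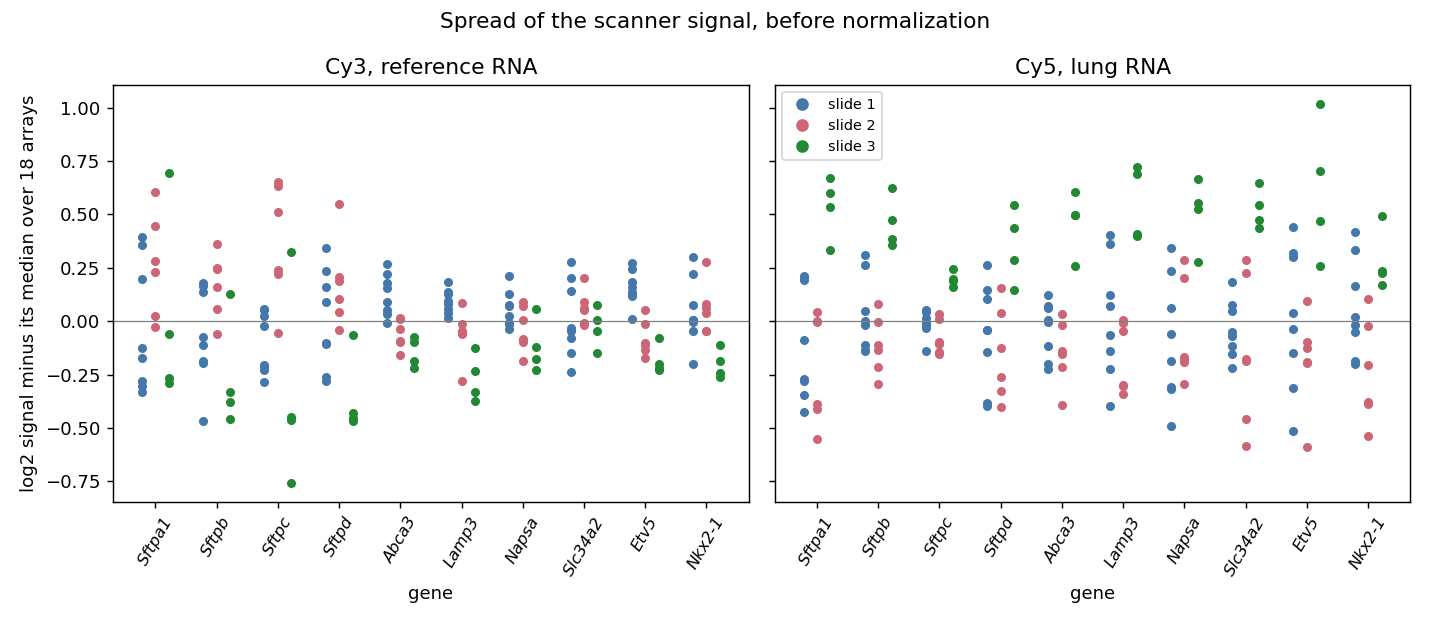
Log2 scanner signal of each gene minus its median over the 18 arrays (vertical axis), in the Cy3 channel with reference RNA and the Cy5 channel with lung RNA, with 1 point per array coloured by slide. Sftpc spreads most in Cy3 and least in Cy5, and the 4 arrays of slide 3 lie above the median in Cy5 for each gene.

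The genes were also compared in pairs for how they varied among mice of 1 group. Over 45 pairs of the 10 genes, with each gene centred on its group means in 18 mice, 15 pairs had a permutation p of 0.05 or less after Benjamini-Hochberg adjustment. The share of such pairs among other genes of these arrays was not computed, so the count is not particular to this set. Among the 4 surfactant protein genes Pearson r was 0.57 to 0.97 and Spearman rho 0.75 to 0.95 (permutation test, adjusted p 0.00015 to 0.0586 for r and 0.000225 to 0.00968 for rho), with r of 0.74 to 0.94 without the 2 mice farthest from the median. With slide means removed as well, r was 0.51 to 0.95, and it was 0.69 to 0.95 in the 8 mice of slide 1 and 0.28 to 0.89 in the 6 of slide 2, while slide 3 with 4 mice is too small for a value. Nkx2-1 had r of 0.67 to 0.76 and rho of 0.71 to 0.83 with these 4 genes (permutation test, adjusted p 0.00203 to 0.0270 for r), which was 0.43 to 0.58 with slide means removed and 0.35 to 0.50 within slide 1. With Slc34a2 the r of Nkx2-1 was 0.50 (permutation test, adjusted p = 0.0270). With Abca3, Lamp3, Napsa and Etv5 it was -0.27, -0.15, -0.34 and -0.15 (permutation test, adjusted p 0.394 to 0.740). With slide means removed, r for these last 4 pairs was 0.27, 0.05, 0.26 and 0.46. The permutations did not keep mice within slides. Genes are not independent here, because each pair shares its arrays and their reference channel.

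Among 13414 genes, the ranking by likeness over the 18 mice (Pearson r of group-centred log2 ratios, given as a description) began with Hopx, a marker of alveolar type 1 (AT1) cells, which came first for Sftpb (r = 0.95), Sftpa1 (0.92) and Sftpc (0.91). Wfdc2, a secreted epithelial protein, came first for Sftpd (0.90) with the AT1 marker Ager second (0.88). For the other surfactant protein genes, second came Cyp2b10 for Sftpa1 (0.91), the club cell marker Cyp2f2 for Sftpb (0.90) and Hba-a2 for Sftpc (0.90). The adherens junction gene Cdh1 came first for Nkx2-1 (0.89). The first gene was Tmsb10 for Abca3 (0.87), Anp32b for Lamp3 (0.87), P3h4 for Napsa (0.88), Ppp1r9a for Slc34a2 (0.82) and Asb7 for Etv5 (0.87). Slide means were not removed for this ranking, and the genes share their arrays and reference channel. Group-centred Sftpc averaged 0.20, -0.15 and -0.17 on slides 1, 2 and 3. The part of slide and reference channel in these r values was not tested.

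Of 16 further AT2 genes, 0 passed at any dose by adjusted p in limma (by unadjusted p under 0.05, 4, 2 and 3 of 16 from low to high dose, beside 8.01%, 15.3% and 15.7% of all probes), and 11, 13 and 11 had a lower mean from low to high dose. Their median log2 fold change was -0.15 at both upper doses, but the sign of the high dose value was turned by both scalings, to 0.08 with median centring and 0.08 with scale normalization. Cxcl15, a chemokine of lung epithelium, was at -0.28 and -0.30 and Cldn18, a tight junction protein, at -0.23 and -0.23, with limma adjusted p of 0.136 to 0.295. Lyz2, which macrophages also carry, was at 0.12 and 0.07.

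Of 19 genes of surfactant lipid synthesis, Lpin1, a phosphatidate phosphatase that makes diacylglycerol, rose at the medium and high dose (log2 fold change 0.67 and 0.62, limma adjusted p 0.00808 and 0.0176). Its second probe, well above background on 1 of 18 arrays, gave 0.07 and -0.01. Pcyt1a, the rate-setting enzyme of phosphatidylcholine synthesis, and Acaca, which makes malonyl-CoA for fatty acids, fell at the medium dose by adjusted p alone (-0.36 and -0.45, adjusted p 0.0289 and 0.0227). At the high dose Pcyt1a was at -0.26 and Acaca at -0.39 (limma adjusted p 0.150 and 0.0618). Acaca had 3 probes, and only the brightest was read. The median over the list was -0.03 (medium) and -0.05 (high), and 0.08 and 0.04 with median centring.

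Of 12 regulators of AT2 genes, Tfcp2l1, a grainyhead-like transcription factor of epithelia, fell at the medium and high dose (-0.59 and -0.71, limma adjusted p 0.00125 and 0.000247), and its second probe gave -0.24 and -0.22. Stat3 fell by adjusted p alone (-0.35 and -0.36, adjusted p 0.0197 and 0.0211). Foxa2 was higher at the high dose (0.21, limma adjusted p 0.299). At that dose 6 of the 12 regulators had a lower mean and 6 a higher one, with a median of -0.05 (0.06 with median centring). By unadjusted p under 0.05 in limma 6 of the 12 passed there, beside 15.7% of all probes, and 1 with median centring. Of 11 genes of FGF signalling around Etv5, 0 passed in limma (1 by unadjusted p at the high dose, beside 15.7% of all probes). At the high dose 6 of the 11 had a lower mean, with a median of -0.07 (0.08 with median centring). Spry1, Spry2 and Dusp6, feedback inhibitors of this pathway, were at 0.30, 0.18 and 0.08 there, and Spred1 and Spred2, which also restrain ERK signalling, were at -0.07 and -0.07, with limma adjusted p of 0.222 to 0.866.

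The lists for the other cells of the lung place these values. Of 9 measured AT1 markers 0 passed, and 9, 8 and 8 had a lower mean at the 3 doses, with medians of -0.11, -0.16 and -0.23. At the high dose the AT1 median was 0.01 with median centring and 0.01 with scale normalization. With loess ratios 5 of the 9 had an unadjusted p under 0.05 in limma there, beside 15.7% of all probes. With median centring 0 of the 9 did. Club cell, ciliated cell and epithelial markers had 0 genes passing, also by unadjusted p in limma at the high dose, and medians there of -0.06, -0.02 and -0.09, all above 0 with median centring. Of 5 fibroblast markers, Col1a1 and Col1a2, the chains of type I collagen, fell at the high dose (-0.64 and -0.65, limma adjusted p 0.0193 and 0.0152), Pdgfra was at -0.24, and Tcf21 and Inmt were at 0.04 and 0.01. Of 5 endothelial markers Pecam1 rose (0.74, adjusted p 0.000597) while Kdr fell by adjusted p alone (-0.38, adjusted p 0.0168), and of the other 3 Tek was at 0.31, Cdh5 at -0.10 and Cldn5 at -0.19.

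Alveolar macrophages, which take up and break down surfactant, had 0 of 8 markers passing in limma. By unadjusted p under 0.05, 1 of the 8 macrophage markers passed at the high dose, beside 15.7% of all probes. Marco, their scavenger receptor, was 1.25 higher on the log2 scale at the high dose with a limma adjusted p of 0.152. The median of the 8 markers was 0.06 at the medium dose, with 4 lower, and 0.14 at the high dose, with 3 lower. Of 9 genes of surfactant uptake and clearance, Bach2 rose by adjusted p alone at the medium dose (0.44, adjusted p 0.0126). Among the 5 dendritic cell markers set beside Lamp3, Flt3 fell by adjusted p alone at the high dose (-0.41, adjusted p 0.0215), while the other 4 had a higher mean, with Ccr7 at 0.58, and the list median was 0.13. Of 6 leukocyte and 7 cardiomyocyte markers 0 passed in limma (3 and 1 by unadjusted p at the high dose), with medians of -0.15 and -0.16 at the high dose, which were 0.09 and -0.05 with median centring. The part of these cells in the values of the 10 genes was not tested. In all of these lists the genes named as risen or fallen kept their direction in 13 of 13 settings, the loess ratios among them. Aquantile normalization, the filter on dim probes, only the groups compared and no fold limit cannot move a fold change. Values within slides, without single mice or over all probes of a gene were not computed for these genes. With median centring 0 of these genes had a limma adjusted p of 0.05 or less.

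**Figure D5:**
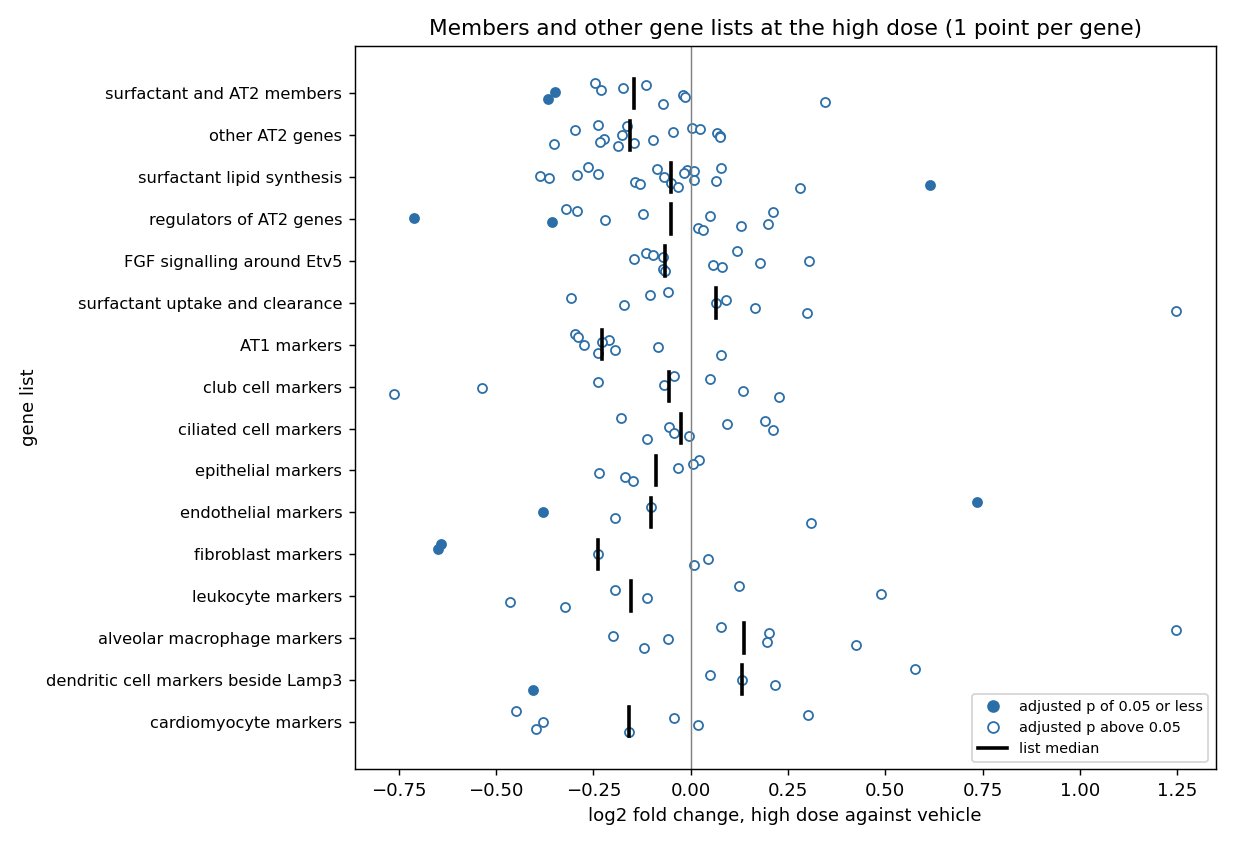
Log2 fold change at the high dose against vehicle (horizontal axis) for each measured gene of the 10 surfactant and AT2 genes and of the other gene lists (vertical axis), with filled points for a limma adjusted p of 0.05 or less and a black bar at each list's median. The medians of the surfactant and AT2 list (-0.14), the other AT2 genes (-0.15) and the AT1 markers (-0.23) lie below 0 with loess ratios and above 0 with median centring.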

How the data were processed

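Lung RNA of 18 mice (5 vehicle, 4 low, 5 medium and 4 high dose) was hybridized to 2-colour 60-mer arrays, Cy5 for the lung and Cy3 for the reference RNA. The authors deposited, per array, median signal intensities of both channels as Feature Extraction 11.0.1.1 wrote them, neither background-subtracted nor normalized, and a log10 ratio for which the scanner software had subtracted background and balanced the dyes. A further deposited table holds log2 ratios, which correlated at 0.996 to 0.998 with the log2 ratios computed here (Cy5 over Cy3, column medians -0.03 to -0.02), so its scale and direction are known and its further steps are not.

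Following the study's methods, log2 Cy5/Cy3 of the median intensities was taken without background subtraction and normalized by loess within each array, with limma 3.58.1 in R 4.3.3. Control spots and outlier spots (215 to 307 per array, of which 0 to 2 were Nkx2-1 spots and 0 lay at the other members) had no weight, outlier spots were left out, and spots of a probe were averaged. The 4 groups were fitted together in limma, which stands in for the MAANOVA of the methods, with Benjamini-Hochberg adjustment over 55681 probes per comparison. Calls needed an adjusted p no higher than 0.05 with at least 1.5-fold change. The fit was tested on simulated data. The brightest probe stood for a gene, and all 10 members were named. Of the other lists, genes were named for passing by adjusted p, or as examples of the list.

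The 3 slides each hold all 4 groups. The position of an array on its slide follows the dose group, so these cannot be told apart. Mice were separate animals, and their number limits the precision. Alternatives were background correction, the scanner's ratios, the authors' table, median centring, scale and Aquantile normalization, the Cy5 channel alone, outlier spots kept, slide as a block, values within slides, a filter on dim probes, only the groups compared, no fold limit, the mean of a gene's probes, a lower saturation limit and leaving out each mouse. Accessions were named, and promoters read, through RefSeq tables of GRCm38.p6, which named 27235 probes. Pair permutations numbered 100000, within groups. Members and lists were chosen with earlier results of these data known.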

Additional observations from a re-analysis of the deposited data

Results flagged for a closer look

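Over 40 groups of values (10 genes in 4 dose groups), 2 held a mouse far from the others, and chance would give about 1 in 20. In the high dose group, mouse 17 had a Napsa log2 ratio of 3.81, where the other 3 mice lay between 3.71 and 3.72, so the gap took 0.878 of the range of the group. In the medium dose group, mouse 12 had an Nkx2-1 log2 ratio of 3.89, where the other 4 mice lay between 3.71 and 3.76, a gap of 0.763 of the range.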

How the results depend on the processing

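No member was called at any dose under any alternative that kept the 1.5-fold limit. Without that limit the medium dose had 1 gene (1 probe) called and the high dose 2 genes (2 probes). The median log2 fold change of the 10 genes was 0.060, -0.056 and 0.073 from low to high dose with median centring, -0.041 (medium) and 0.17 (high) with scale normalization, and -0.32 within slide 2 and 0.051 within slide 3 at the high dose. Over all probes, median centring called 3, 32 and 80 at the 3 doses in place of 50, 404 and 670, and the scanner's ratios 33, 696 and 1075. A saturation limit of 60000 in place of the scanner's own marked 72 member spots in place of 0.

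Some single values changed sign, all without a call, which had to be so because no member was called with the 1.5-fold limit. With median centring the log2 fold changes that did so were, at the low dose, Abca3 0.0019, Nkx2-1 0.059, Sftpa1 0.098 and Sftpd 0.061, at the medium dose Lamp3 0.017 and Napsa 0.095, and at the high dose Lamp3 0.22, Napsa 0.22, Nkx2-1 0.061, Sftpb 0.14, Sftpc 0.085 and Sftpd 0.030. With scale normalization they were Napsa 0.075, Nkx2-1 0.010 and Sftpd 0.041 at the medium dose, and Lamp3 0.12, Napsa 0.19, Nkx2-1 0.14, Sftpa1 0.11, Sftpb 0.24, Sftpc 0.21 and Sftpd 0.19 at the high dose. With the Cy5 channel alone they were Sftpb -0.17 and Sftpc -0.049 at the low, Sftpc 0.024 at the medium and Lamp3 0.073 and Napsa 0.0032 at the high dose. The authors' table gave Lamp3 0.044 at the high dose, the scanner's ratios Lamp3 0.0056 at the high and Nkx2-1 0.087 and Slc34a2 0.0009 at the low dose, and slide as a block Napsa 0.014 at the high and Sftpc -0.031 at the low dose. The cause was not tested.

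Leaving out 1 mouse at a time gave signs of both kinds for Sftpc (-0.11 to 0.085) and Nkx2-1 (-0.095 to 0.040) at the low dose, Napsa at the medium (-0.13 to 0.029) and high dose (-0.086 to 0.075), Lamp3 (-0.093 to 0.082) and Nkx2-1 (-0.13 to 0.0014) at the high dose. Aquantile normalization leaves ratios as they were. No paired analysis was possible because the groups share no mouse numbers.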
